A study of Mus musculus with 77 samples.

Results

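Cytosolic ribosomal proteins are the protein subunits of the ribosome that translates nuclear mRNAs, and their mRNAs were followed here in blood and in the BNST, the bed nucleus that lies along the stria terminalis, a forebrain region that regulates anxiety. Members were taken as protein-coding genes with a mouse symbol Rpl (large subunit) or Rps (small subunit) followed by a number, together with the stalk genes Rplp0, Rplp1 and Rplp2 and the laminin receptor gene Rpsa. The kinase genes that share the Rps6 prefix, and Rps19bp1, were left out. Of 91 such genes in the GENCODE M21 annotation, 57 of the large and 34 of the small subunit, 81 were among the 16587 genes measured in BNST and 83 among the 13084 genes measured in blood. BNST held 49 large and 32 small subunit members, and blood held 51 and 32. Rpl3l and Rpl9-ps6 were listed in blood alone, and 8 genes were listed in neither tissue: Rpl10-ps3, Rps27rt, Rpl9-ps1, Rpl10l, Rpl36a-ps1, Rpl39l, Rpl36-ps4 and Rps12-ps3.

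Male mice of the inbred strains C57BL/6Crl (B6) and DBA/2Crl (D2), which carried no engineered allele, went through 10 days of chronic social defeat stress (CSDS) by CD-1 aggressors or were kept as same-strain controls that met a new neighbour across a divider each day. Defeated mice were called susceptible when they avoided a social target and resilient when their behavior was like that of controls, and tissue was taken 6 to 8 days after the last defeat, at an age of 8 weeks. In BNST the measured RNA was mRNA pulled down with Argonaute 2 (AGO2), the protein that holds microRNAs in the silencing complex, from B6 mice only, in 5 control, 5 resilient and 4 susceptible pools of 3 BNSTs each. In blood, RNA of single mice was sequenced after globin and ribosomal RNA depletion in 5 B6 control, 5 B6 resilient, 5 B6 susceptible, 5 D2 control and 5 D2 susceptible mice. No unselected BNST RNA was used here, so the BNST values are levels in the AGO2-bound fraction and not of the tissue.

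Each ribosome holds 1 copy of nearly every ribosomal protein, so cells make these proteins in matched amounts, and their mRNAs are among the most abundant and most evenly expressed. Many of these mRNAs start with a run of pyrimidines, the terminal oligopyrimidine (TOP) motif, through which the kinase complex mTORC1 and the RNA-binding protein Larp1 set their translation. Red cell precursors make ribosomes at a high rate, and reticulocytes still carry ribosomal protein mRNAs into the blood.

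Totals of 3701281 to 10659882 reads per BNST pool and 9751603 to 15878495 reads per blood sample lay behind the values. All 81 members had reads in every BNST pool, with a lowest count of 3 reads, and 82 of the 83 members had reads in every blood sample, the exception being Rpl3l. All 10 neuronal markers were measured in every BNST pool and all 9 erythroid markers in every blood sample, and every marker measured had reads in every group. In 2 of the D2 blood mice the group in the label differed from the group in the name of the data column. By its column name D2 control mouse 2 was susceptible, and D2 susceptible mouse 2 was a control. The values, ranges and exact p of single members in D2 mice include them. The label groups are reported, and the strain count is also given without these mice. Among the BNST pools and blood mice, no pair of replicates agreed within counting noise, so every library was kept as a separate sample.

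The members took 0.239% to 0.298% of the reads of a BNST pool and 1.70% to 3.30% of the reads of a blood sample. The spread between replicates was small, with a median within-group SD of 0.220 on the log2 scale for members against 0.275 for all genes in BNST, and 0.217 against 0.361 in blood. Levels differed widely between members. Read counts scaled to library size and divided by kilobases of annotated exon (CPM per kb) were compared within the controls of each tissue.

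In BNST, Rplp1, a protein of the stalk that recruits elongation factors, stood highest at 65.6 ± 5.7 CPM per kb (SD, n = 5 pools), followed by Rpl4 at 62.8 ± 3.1 and Rpl17 at 47.5 ± 5.4, so that Rplp1 and Rpl4 did not differ beyond their spread. The lowest were Rps10 at 5.0 ± 0.5, Rpl18 at 4.2 ± 0.4 and Rpl36al at 3.1 ± 0.5. Median levels were 16.4 CPM per kb for the large and 12.7 for the small subunit. Exon length counts every annotated transcript, so a member with long noncoding transcripts is placed lower than its coding mRNA would be.

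In blood the order was again led by Rplp1, at 1931 CPM per kb as the mean over B6 and D2 controls, ahead of Rplp0 at 1134 and Rps29 at 682, a zinc-finger protein of the small subunit. At the other end stood Rpl24 at 6.2 CPM per kb, Rpl9-ps6 at 1.4 and Rpl3l at 0.3. Of the 25-base words of Rpl9-ps6, 93.2% occur in Rpl9, and of those of the pseudogene Gm9385, 94.4% occur in Rpl24. Reads in shared sequence cannot be assigned, and the effect of this on the levels was not tested. Rpl3l is known as a heart and skeletal muscle form of Rpl3, and Rpl3 stood 305 times higher. Rps27 exceeded Rps27l 3.46 times in BNST and 36.3 times in blood, Rpl7 exceeded Rpl7l1 1.82 and 32.0 times, Rpl36a exceeded Rpl36al 3.67 and 4.96 times, and Rpl22 exceeded Rpl22l1 1.69 and 2.22 times.

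Over the 81 members in both tissues, CPM per kb in control blood and control BNST pools had a Spearman rho of 0.506 across genes, which are not independent replicates and share exon length and annotation. Blood was the higher in 77 of 81, by a median factor of 8.63. The ratio ran from 0.39 for Rpl13a, followed by Rpl10a at 0.69, Rpl7l1 at 0.74 and Rpl24 at 0.85, to 85.2 for Rplp0, with Rps12 at 47.2 and Rpl39 at 45.8 next. Rpl13a, Rpl24 and Rplp0 share sequence with other measured genes in blood, and the effect of this on the ratios was not tested. Tissue, strain (B6 alone in BNST, B6 and D2 in blood), RNA fraction and library kit all differed between these data sets and cannot be told apart.

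**Figure D1:**
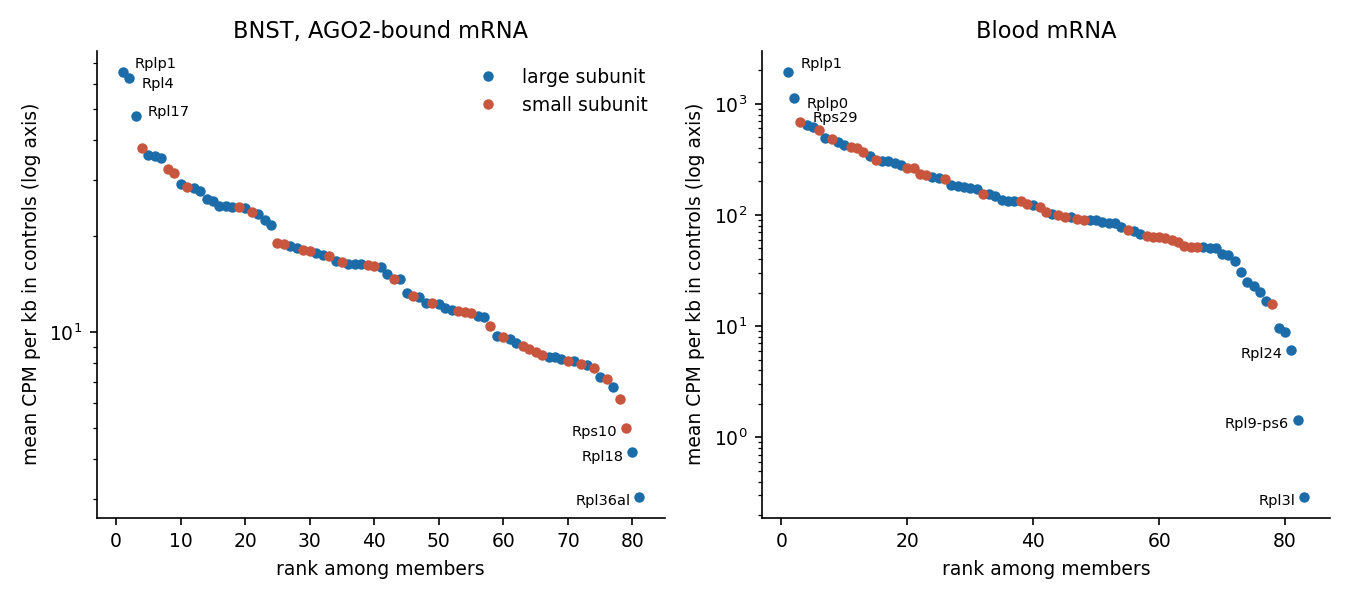
Mean CPM per kb of exon in controls (log axis) for each member by its rank, in AGO2-bound mRNA of BNST (left) and in blood (right), with large subunit members in blue and small subunit members in red. Rplp1 leads in both tissues, and blood spans a wider range, from 1931 down to 0.3 for Rpl3l, than BNST, from 65.6 to 3.1 for Rpl36al.

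Whether CSDS changed the AGO2-bound ribosomal protein mRNAs was asked first. Members called in either defeated group were all lower than in controls, while none was called higher. A gene was called at an unadjusted p under 0.05 and a fold of at least 1.2, the criteria of the study. Resilient pools had 6 of 81 members called lower (7.41%), against 9.04% of all genes called lower, 8.65% called higher and 17.7% called in all. In susceptible pools 10 of 81 were called lower (12.3%), against 9.28% of all genes called lower, 9.65% called higher and 18.9% called in all. The counts of lower members were thus near the share of all genes called lower. They rested on single pools: the resilient count was 15 without resilient pool 3 (26.0% of all genes called in all) and 10 without resilient pool 5 (14.9%). The susceptible count fell to 5 when control pool 2 was left out (17.8%), to 5 again for control pool 5 (17.1%) and for susceptible pool 2 (14.4%). It fell to 6 for control pool 3 (18.1%) and to 4 for susceptible pool 3 (17.6%), and rose to 16 for susceptible pool 1 (21.3%). Fewer cells of a type and less RNA per cell cannot be told apart in such pools.

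In resilient pools 76 of 81 members had a fold change below 0, with medians on the log2 scale of -0.14 for the large subunit, -0.19 for the small subunit and -0.02 for all genes. In susceptible pools 60 of 81 were below 0, with medians of -0.09, -0.18 and -0.01. The mean over large subunit members was 4.86 ± 0.079 log2 CPM in controls (SD, n = 5), 4.70 ± 0.058 in resilient pools (n = 5) and 4.76 ± 0.16 in susceptible pools (n = 4). The mean over small subunit members was 4.64 ± 0.082, 4.45 ± 0.069 and 4.48 ± 0.15 in the same order. Within a pool the small subunit lay below the large by 0.19 to 0.24 in controls, 0.21 to 0.29 in resilient and 0.25 to 0.32 in susceptible pools, so the susceptible and control ranges only just did not overlap and the resilient range overlapped both. Both defeated groups were set against the same control pools.

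**Figure D2:**
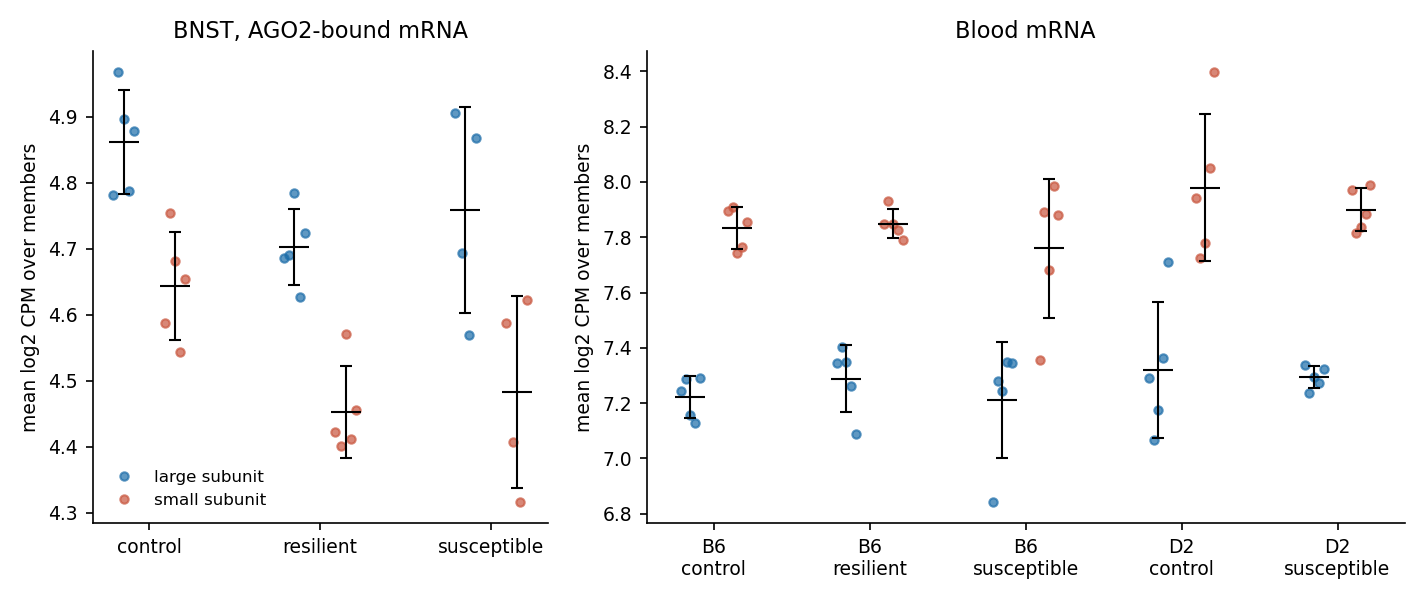
Mean log2 CPM over large subunit members (blue) and small subunit members (red) in each BNST pool (left) and each blood sample (right), by group, with group means and SD in black. In BNST the control means of 4.86 and 4.64 lie above those of both defeated groups with overlapping pools, and in blood 1 B6 susceptible mouse lies low and 1 D2 control mouse lies high.

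Rps26 was the call that passed correction over all genes. It is a protein at the mRNA exit channel of the small subunit (chromosome 10, 128624534 to 128626747, GRCm38). Control pools had 3.72, 3.78, 3.98, 3.90 and 3.70 log2 CPM of Rps26, resilient pools 3.49, 3.73, 3.46, 3.33 and 3.43, and susceptible pools 3.30, 3.41, 3.13 and 3.30. Every susceptible pool lay below every control pool, and 1 resilient pool reached into the control range. The log2 fold change was -0.53 (SE 0.14, limma adjusted p = 0.0394, Benjamini-Hochberg over all genes, two-sided exact permutation p = 0.00794, the smallest that 5 against 4 pools can give) in susceptible and -0.32 (SE 0.13, adjusted p = 0.167, exact p = 0.0238) in resilient pools. That adjusted p was the single one under 0.05 among the members in any BNST comparison, against 4.02% of all genes in susceptible and 1.95% in resilient pools. It did not hold when a pool was left out: without any 1 of the control or susceptible pools, with voom on recovered reads and with the replicate block, 0 members had an adjusted p under 0.05 in susceptible pools. The unadjusted call of Rps26 in susceptible pools held under all 24 alternatives, with log2 fold changes from -0.57 to -0.45.

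Rps6, the small subunit protein phosphorylated by the S6 kinases (chromosome 4, 86854660 to 86857412), was lowest in resilient pools. Its log2 CPM was 3.82, 4.37, 3.91, 4.06 and 4.07 in control, 3.59, 3.44, 3.67, 3.73 and 3.27 in resilient and 3.99, 3.56, 3.51 and 3.97 in susceptible pools. Resilient and control pools did not overlap, and the susceptible pools fell in both ranges. The log2 fold change of Rps6 in resilient pools was -0.51 (SE 0.15, limma adjusted p = 0.0771, exact p = 0.00794). In susceptible pools it was -0.29, with an SE of 0.16, and was not called (limma adjusted p = 0.306).

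Rps3a1, a small subunit protein, and Rpl28, a large subunit protein, were called lower in both defeated groups. Rps3a1 measured 4.79, 4.95, 4.77, 4.48 and 5.01 log2 CPM in control, 4.23, 4.48, 4.47, 4.78 and 4.16 in resilient and 4.32, 4.11, 4.48 and 4.51 in susceptible pools. Rpl28 measured 4.19, 4.52, 4.65, 4.41 and 4.39 in control, 4.10, 4.08, 4.15, 3.97 and 4.01 in resilient and 4.23, 3.87, 3.82 and 4.30 in susceptible pools. Rpl28 separated resilient from control pools by a narrow margin, and the other groups of these members overlapped. The log2 fold changes were -0.38 and -0.45 for Rps3a1 and -0.37 and -0.37 for Rpl28 in resilient and susceptible pools, with limma adjusted p of 0.142, 0.0937, 0.121 and 0.121.

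The other calls in resilient pools were Rps19, which is mutated in the red cell disease Diamond-Blackfan anaemia, and Rps3, a protein at the mRNA entry channel that also acts in DNA repair, both at -0.27 (SE 0.11 and 0.12, limma adjusted p = 0.171 and 0.205). In susceptible pools the other calls were Rpl39 at -0.47, Rpl41 at -0.34, Rpl23a at -0.33, Rplp2 at -0.33, Rps15 at -0.33, Rpl21 at -0.32 and Rps7 at -0.29, with adjusted p between 0.134 and 0.232. Rpl39 lines the tunnel of the nascent chain, Rpl23a lies at its exit, and Rplp2 is a stalk protein. Rps7 and Rps15 did not overlap between susceptible and control pools (exact p = 0.0159), while Rplp2 overlapped and had an exact p of 0.119. In all, 5 members did not overlap between resilient and control pools (5.18% of all genes did not) and 3 did not overlap between susceptible and control pools (10.9% of all genes).

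**Figure D3:**
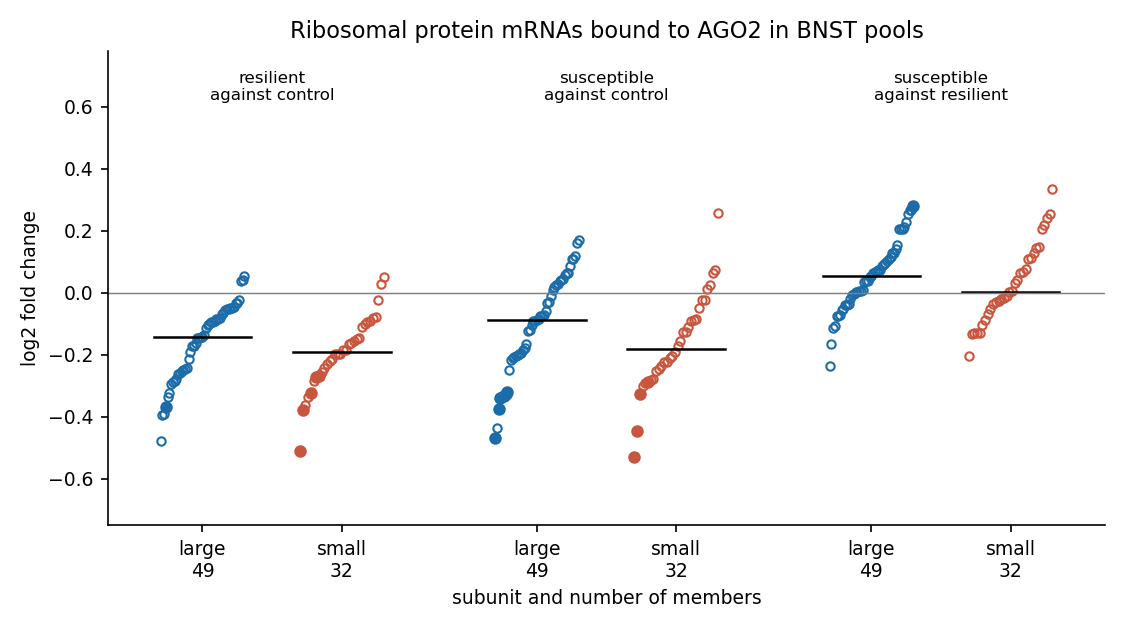
Log2 fold change of each member (circles, large subunit blue, small subunit red, sorted by value) in the 3 BNST comparisons, with filled circles for called members and black lines for medians. The filled circles are all below 0 against controls, 6 in resilient and 10 in susceptible pools, and 1 is above 0 between the defeated groups.

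Several members with further roles were not called in either defeated group against controls. Rpl5 and Rpl11, which hold the ubiquitin ligase Mdm2 when ribosome assembly fails, had log2 fold changes of -0.02 (SE 0.11) and -0.14 (SE 0.10) in resilient and 0.03 (SE 0.12) and -0.03 (SE 0.11) in susceptible pools. Rplp0 was at -0.05 and 0.06, Rplp1 at -0.25 and -0.22, Rpsa at -0.10 and 0.01, Rpl3 at -0.09 and 0.11, and Rps27a, which is made as a fusion with ubiquitin, at -0.11 and -0.13, with SE between 0.11 and 0.18. For Rplp1, with the largest of these errors, a change of the size called elsewhere could not be told from the spread between pools. Rpl10a varied widely, from 5.40 to 7.24 log2 CPM in resilient pools alone, and Rpl36al ran from 0.052 to 2.18 log2 CPM in the same pools, with 1 low pool.

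Between susceptible and resilient pools Rpl19, a large subunit protein, was the single member called (1 of 81, called higher, against 0.953% of all genes called higher and 2.14% called in all). Susceptible pools had 5.04, 4.95, 4.84 and 4.85 log2 CPM and resilient pools 4.76, 4.41, 4.88, 4.50 and 4.66, so that 1 resilient pool lay in the susceptible range. The difference was 0.28 (SE 0.11, limma adjusted p = 1.00, exact p = 0.0476). Control pools ran from 4.77 to 4.94, within the range of the other groups. Without resilient pool 2 or resilient pool 4 the count was 0 (2.8% and 2.76% of all genes called). Without resilient pool 5 it was 3 (1.85%), and without resilient pool 3 or susceptible pool 3 it was 4 (5.71% and 2.15%).

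Cell type markers were called in both directions beside these values. Over all genes 9.28% were called lower and 9.65% higher in susceptible pools, and 9.04% and 8.65% in resilient pools. Of 10 BNST neuron markers 5 were called lower and 1 higher in susceptible pools, and 2 were called lower in resilient pools. Their summed level ran from 2049 to 2231 CPM in control, 1872 to 2030 in resilient and 1503 to 1998 in susceptible pools, and none was at 0. All 5 choroid plexus markers were called lower in susceptible pools, with sums of 32.5 to 187 CPM in control and 11.9 to 60.0 in susceptible pools. Of 5 astrocyte markers 2 were called lower in susceptible pools, where their sums of 1157 to 1461 CPM did not overlap those of 1507 to 1743 in control pools. Of 6 oligodendrocyte markers 2 were called lower and 1 higher, with sums of 2097 to 3546 CPM in susceptible and 3459 to 5194 in control pools. In resilient pools 1 choroid plexus marker was called lower, 0 astrocyte markers were called, and 1 oligodendrocyte marker was called higher and 1 lower. Of 5 microglia markers 1 was called higher and 1 lower in each defeated group. Of 4 endothelial markers 1 was called lower in susceptible pools. Blood cell markers went both ways there, with 1 of 2 platelet markers called higher and 1 of 6 erythroid markers lower. The part of cell types in the ribosomal protein values was not tested.

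Sequences just before the start of transcription are shown for the members called lower in both defeated groups and for Rps6, because ribosomal protein genes are known for short, regularly spaced promoter motifs. Windows of 300 bases (250 before and 50 after the start, RefSeq, GRCm38.p6) were given for 65 members, 61 of them measured in BNST. The letters CGGAAG, the core bound by ETS family factors, were searched on both strands (CTTCCG on the other) and were found in 59.7% of the 77 member windows against 16.9% of all 32851 windows. They were in 53.2% of Rpl and 70.0% of Rps windows. Of the 13 members called lower in either defeated group 11 had a window, and 9 of these held the letters, against 42 of the 61 BNST members with a window. A start with C and 4 further pyrimidines, as in a TOP mRNA, was found in 18.2% of member windows and 2.51% of all windows. The stretches below run from 110 bases before the start to the first 10 transcribed bases, 5′ to 3′ on the gene's strand, with CGGAAG or CTTCCG in capitals.
Rps26, chr10:128626497-128626616, minus strand: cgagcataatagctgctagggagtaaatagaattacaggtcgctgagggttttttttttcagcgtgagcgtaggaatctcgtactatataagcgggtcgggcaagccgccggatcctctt
Rps6, chr4:86857358-86857477, minus strand: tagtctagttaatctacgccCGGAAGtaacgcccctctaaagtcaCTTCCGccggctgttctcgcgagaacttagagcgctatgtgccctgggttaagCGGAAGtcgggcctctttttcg
Rps3a1, chr3:86142659-86142778, minus strand: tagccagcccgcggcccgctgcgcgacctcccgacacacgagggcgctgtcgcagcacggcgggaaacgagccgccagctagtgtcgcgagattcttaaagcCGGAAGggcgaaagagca
Rpl28, chr7:4792855-4792974, plus strand: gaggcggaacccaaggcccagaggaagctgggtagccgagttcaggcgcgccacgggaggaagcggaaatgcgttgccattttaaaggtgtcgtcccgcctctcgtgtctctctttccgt
Rps6 held 3 matches, Rps3a1 held 1, and Rps26 and Rpl28 held none in these stretches, so the 4 members did not share the letters within them. The counts above cover the whole windows of 300 bases, which are not shown for these members. Rps6 and Rpl28 started with C and 4 pyrimidines at the RefSeq start, and Rps26 and Rps3a1 did not. The pyrimidine checks need a start exact to the base, and other annotated starts were not tried.

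The genes that make, regulate or work with ribosomes were called in both directions in the same pools. Of 53 ribosome biogenesis factors 5 were called higher and 2 lower in resilient pools, and 6 higher and 3 lower in susceptible pools. Over all genes the shares were 8.65% higher and 9.04% lower in resilient and 9.65% and 9.28% in susceptible pools, and no list was tested against these shares. Examples were Utp20, a factor of small subunit processing, at 0.29 and 0.36 (limma adjusted p = 0.0961 and 0.0484) and Gar1, a protein of the pseudouridylation particles, at -0.36 and -0.51 (adjusted p = 0.152 and 0.0569). The nuclear import factor Ipo4, which carries ribosomal proteins among other cargoes, was higher by 0.50 and 0.51 (SE 0.11 and 0.12, adjusted p = 0.0325 and 0.0252), 1 of 13 assembly factors called higher in each defeated group, and Rps19bp1 was at -0.64 in susceptible pools (adjusted p = 0.101).

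Of 16 regulators of mTORC1 and TOP mRNAs 4 were called higher and 1 lower in resilient pools, and 3 higher and 3 lower in susceptible pools. Tsc2, an inhibitor of mTORC1, was higher by 0.46 and 0.52 (limma adjusted p = 0.0310 and 0.0150), and Larp1, which binds TOP mRNAs, was lower by -0.58 in susceptible pools (adjusted p = 0.0477). Deptor, another mTORC1 inhibitor, was lower by -0.40 and -0.68 (adjusted p = 0.196 and 0.0436). Among 35 initiation factors 1 was called higher and 2 lower in resilient, and 1 higher and 4 lower in susceptible pools, including the eIF2 subunit gene Eif2s3x at -0.77 and -0.95 (adjusted p = 0.132 and 0.0755). Of 8 elongation factors 1 was called higher and 1 lower in resilient, and 1 higher and 0 lower in susceptible pools. Eef1d, a nucleotide exchange subunit, was higher by 0.43 in each (adjusted p = 0.0333 and 0.0314). Eif5a2 was lower by -0.30 in resilient pools (adjusted p = 0.0973). Of 6 nascent chain factors 1 was called lower in resilient and 2 in susceptible pools, with 0 higher. Of 78 mitochondrial ribosomal proteins 3 were called higher and 4 lower in each defeated group. Of the 3 ribosomal proteins measured under other symbols none was called in BNST.

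Blood was then compared for the same stress contrasts, and no member was called in any of them. B6 resilient, B6 susceptible and D2 susceptible mice against same-strain controls gave 0 of 83 members each, against 2.11%, 4.5% and 1.57% of all genes, and B6 susceptible against resilient mice gave 0 of 83 against 2.03%. The difference between the strains in the change of susceptible mice was called for 0 of 83, against 5.37% of all genes. With the groups of the column names in place of the labels of the 2 disputed D2 mice, the members called in D2 susceptible mice were still 0, but 6.8% of all genes were called, and 3.97% without these mice. The share for the difference between the strains was then 10.1% and 8.18%, again with 0 members. The number of members at an unadjusted limma p under 0.05 was also 0 in each, and the smallest unadjusted p of a member was 0.0550, for Rps16 in B6 susceptible mice, at -0.28 on the log2 scale (adjusted p = 0.968). Rps16 measured 6.34, 6.34, 6.17, 6.02 and 6.11 log2 CPM in B6 control and 5.36, 6.25, 5.82, 6.09 and 6.06 in B6 susceptible mice, with 1 low mouse and overlapping groups. Single mice moved these counts: without B6 resilient mouse 5 the count was 5 in B6 resilient mice against controls (8.61% of all genes called). It was then 2 in B6 susceptible against resilient mice (3.8%). Without B6 susceptible mouse 5 it was 2 in B6 susceptible mice against controls (3.9%). It was 1 in B6 resilient mice without B6 susceptible mouse 1 (2.34%). In B6 susceptible mice it was 1 without B6 control mouse 2, 4 or 5 or B6 susceptible mouse 2 or 4 (2.66% to 8.1%).

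Members called in BNST showed these values in blood. Rps26 was at 0.08 in B6 resilient, -0.08 in B6 susceptible and -0.15 in D2 susceptible mice (SE 0.13), and Rps6 at -0.04, -0.07 and -0.16 (SE 0.14). Rps3a1 was at -0.04, -0.07 and -0.13 (SE 0.17). A call needed a change well above these errors and of at least 1.2-fold, so smaller changes could not be called in blood. Median differences over the members were 0.02 in B6 resilient, -0.06 in B6 susceptible and -0.08 in D2 susceptible mice, and their size and sign depended on the scaling and the block. With quantile normalization the medians were -0.11 in B6 resilient and -0.20 in B6 susceptible mice, with medians of all genes of -0.01 and -0.03, and with the title prefix as a block the D2 median was 0.02. Between susceptible and resilient B6 mice 78 of 83 members were below 0, with a median of -0.09 against -0.01 for all genes. B6 susceptible mouse 1 was the lowest of the 25 mice in 56 of 83 members, with means of 6.84 log2 CPM over the large and 7.36 over the small subunit, and its library was the smallest at 9751603 reads. Without this mouse the count of called members in B6 susceptible mice against controls was still 0.

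Between the strains, members were called in both directions. D2 controls differed from B6 controls in 33 of 83 members (26.4% of all genes called), 26 higher (15% of all genes) and 7 lower (11.4%), and 17 of these had an adjusted p under 0.05 (15.5% of all genes). The small subunit held 16 of 32 and the large subunit 17 of 51. The medians were 0.13 for the large and 0.16 for the small subunit on the log2 scale, against 0.01 for all genes. Members whose D2 and B6 controls did not overlap numbered 18, against 12% of all genes. After a rescaling of the samples from their recovered reads the median of all genes was 0.18, and the count was 28 higher and 5 lower (25.6% of all genes called). Without the 2 mice whose labels and column names differ, 38 members were called (28.3% of all genes). Strain and the prefix of the sample titles went together in these mice and cannot be told apart.

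Blood cell markers also differed between the control groups, where 11.4% of all genes were called lower and 15% higher in D2. Of 9 erythroid markers 5 were called lower in D2, with summed levels of 125362 to 196750 CPM in B6 and 65712 to 179978 CPM in D2 controls. All 6 B cell markers were called lower, from 1232 to 1782 CPM in B6 and 796 to 1514 CPM in D2 controls, and 4 of 6 platelet markers were called higher, from 1419 to 5374 CPM in B6 and 3322 to 12840 CPM in D2 controls. T cell markers were called higher in 3 of 8, neutrophil markers in 2 of 7 and monocyte markers in 2 of 5. NK cell markers were called lower in 2 of 5. In D2 against B6 susceptible mice 3 of 9 erythroid and 2 of 5 NK cell markers were again lower and 2 of 8 T cell markers higher. There 0 of 6 B cell markers were called, and 1 of 6 platelet, 2 of 7 neutrophil and 1 of 5 monocyte markers were lower. Over all genes 12.4% were called lower and 11.3% higher in that comparison. The part of cell composition in the strain values of the members was not tested.

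The lowest member in D2 relative to B6 was Rpl34, a large subunit protein (chromosome 3, 130726831 to 130730398). B6 controls had 8.33, 8.36, 8.11, 8.14 and 8.32 log2 CPM and D2 controls 7.07, 6.91, 6.97, 7.21 and 7.46. The lowest of all 15 B6 mice was at 7.79 and the highest of all 10 D2 mice at 7.46, so the strains did not overlap. The log2 fold change was -1.13 in controls (SE 0.13, limma adjusted p = 7.46e-07, exact p = 0.00794, the smallest for 5 against 5 mice). Rpl34 shared no stretch with another measured gene at the limit used below, but genes that were not measured were not compared. Reads of both strains were aligned to GRCm38. The effect of this on Rpl34 and on the members below was not tested.

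Rpl29, a large subunit protein also known as a heparin-binding protein (chromosome 9, 106429454 to 106431568), and Rps28, at the mRNA exit channel (chromosome 17, 33819027 to 33824562), were lower in D2 as well. Rpl29 had 5.01, 5.19, 4.93, 4.68 and 4.76 log2 CPM in B6 controls and 3.80, 3.63, 3.96, 3.95 and 4.39 in D2 controls. Rps28 had 7.16, 7.18, 7.06, 7.03 and 7.12 in B6 controls and 6.24, 6.02, 6.05, 6.26 and 6.64 in D2 controls. All D2 controls lay below all B6 controls in both members, which differed by -0.97 and -0.87 (limma adjusted p = 5.86e-06 and 9.63e-06). Rps15a followed at -0.70 (adjusted p = 0.00108), Rps18 at -0.57 (adjusted p = 0.00988), Rpl39 at -0.51 (adjusted p = 0.146) and Rpl26, which acts on p53 mRNA, at -0.39 (adjusted p = 0.0359).

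Among the members higher in D2, Rps19 (chromosome 7, 24884371 to 24889806) led. B6 controls had 7.78, 8.03, 7.67, 7.57 and 7.72 log2 CPM of Rps19 and D2 controls 8.46, 8.11, 8.19, 8.55 and 9.24. No D2 control reached down to the B6 controls, and 1 of them stood well above the other D2 controls. The difference was 0.75 (SE 0.17, limma adjusted p = 0.00210). Rps27a (chromosome 11, 29545846 to 29548109) was higher by 0.71 (adjusted p = 0.00304), from 6.86 to 7.19 log2 CPM in B6 to 7.35 to 8.39 in D2 controls. Next were Rps3a1 at 0.63, Rpl36a at 0.59, Rps20 at 0.57, Rpl35a at 0.49 and Rpl30 at 0.44 (limma adjusted p from 0.00661 to 0.0282). Rpl5 and Rpl11 were also called higher, at 0.35 and 0.31 (adjusted p = 0.0743 and 0.131), as was Rps6 at 0.38 (adjusted p = 0.0740), while Rplp0, Rplp1, Rplp2, Rpsa and Rpl3 were not called. The mouse that stood above in Rps19, D2 control mouse 5, was the highest of the 25 mice in 57 of 83 members. Without it 22 members were called. The share of all genes called in that fit is not given here, so the drop cannot be called particular to the members.

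The strain difference was compared again in susceptible mice, which are other animals than the controls, a contrast added after the data had been seen. D2 and B6 susceptible mice differed in 27 of 83 members (23.7% of all genes called), 21 higher (11.3% of all genes) and 6 lower (12.4%), and 16 had an adjusted p under 0.05 (13.9% of all genes). With the samples rescaled from their recovered reads, the median of all genes was 0.25 (-0.01 before) and the count was 36 higher and 4 lower (23.8% of all genes called). All 33 members called in controls had the same sign in susceptible mice, and 26 of them were called again, 78.8% of the calls in controls and 96.3% of those in susceptible mice. The exception was Rpl10a, called in susceptible mice alone. Shares of repeated calls over all genes were not computed, so these percentages cannot be called particular to the members. Strain and title prefix went together here as in the controls. Rpl34 was at -1.18, Rpl29 at -1.14, Rps28 at -0.76, Rps15a at -0.71, Rps19 at 0.75 and Rps27a at 0.65 in susceptible mice, with limma adjusted p of 3.62e-07, 4.57e-07, 5.44e-05, 0.000955, 0.00228 and 0.00668.

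**Figure D4:**
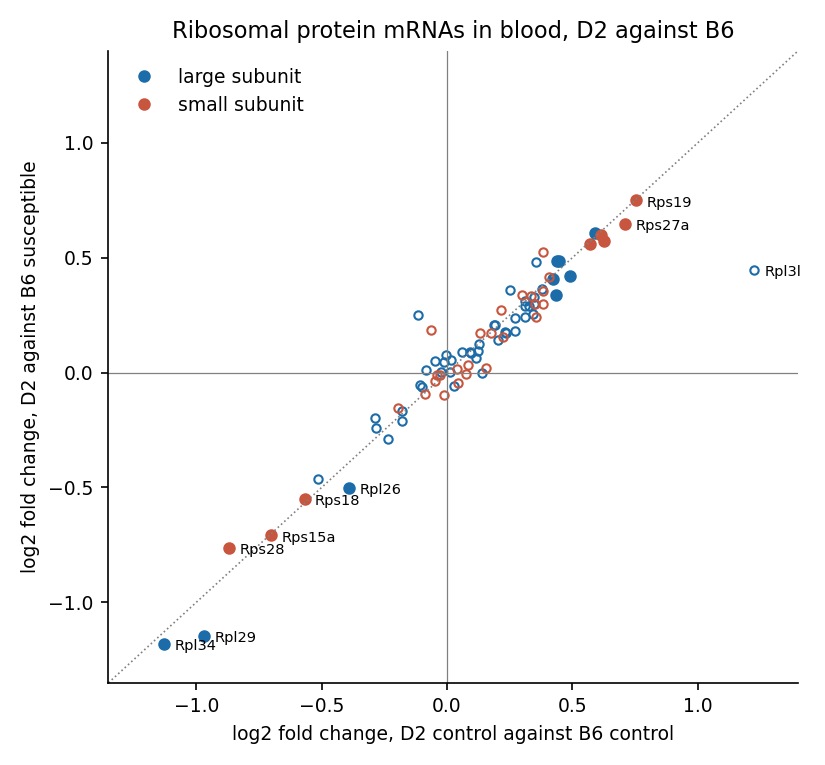
Log2 fold change of D2 against B6 for each member in control mice (horizontal) and in susceptible mice (vertical), large subunit blue, small subunit red, filled where the adjusted p in controls was under 0.05, with the dotted line of equal values. Members lie along the line from Rpl34 at -1.13 and -1.18 to Rps19 at 0.75 and 0.75, and Rpl3l, the member with the fewest reads, lies away from it.

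Related genes differed between the control groups in both directions. Of 53 ribosome biogenesis factors 1 was called higher and 7 lower in D2, of 35 initiation factors 3 higher and 5 lower, and of 16 mTORC1 and TOP regulators, 15 of them measured, 4 higher and 1 lower, beside 15% of all genes higher and 11.4% lower. Larp1, which was lower in susceptible BNST pools, was higher in D2 blood by 1.42 in controls and 1.42 in susceptible mice (SE 0.18 each). Sbds, which releases an anti-association factor from new large subunits, was lower by -0.58 (limma adjusted p = 0.00107), Ltv1, a factor of small subunit export, was higher by 0.56 (adjusted p = 0.0126), and Eif3a was lower by -0.46 (adjusted p = 0.0128). Fau, a small subunit protein made as a fusion with a ubiquitin-like protein, was the 1 of 3 ribosomal proteins under other symbols that was called, higher in D2 by 0.48 (adjusted p = 0.0283).

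Ribosomal protein mRNAs have been copied into the genome many times, and 290 pseudogenes with a matching symbol are annotated. Genes and pseudogenes at another place in the genome, at least 10% of whose 25-base words occur in a member, were therefore listed as near-copies. In blood 37 members had a near-copy among the measured genes, and 42 of the 44 near-copies were not members themselves. Of these 42, 16 (38.1%) averaged under 1 CPM over the 15 B6 mice and above it over the 10 D2 mice, and 3 the other way, against 3.06% of all genes in the first direction (400 genes, with 497 in the other). Genes without 1 CPM in enough samples had been removed beforehand, so near-copies low in both strains are absent. Those low in B6 were kept mainly through their D2 reads, so the share of 38.1% is no test of a strain difference. Reads of a member and its near-copy cannot be assigned where the sequences are the same.

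Rps18, a small subunit protein at the interface with the large subunit, was the 1 member called in opposite directions without and with the reads of its near-copy. Gm10260 on chromosome 13 (97760072 to 97760632), annotated as protein-coding, had 4, 2, 3, 0 and 0 reads in the B6 controls and 1826, 1876, 1446, 2399 and 1788 reads in the D2 controls. Rps18 itself (chromosome 17, 33951999 to 33956001) had 147, 167, 148, 137 and 154 CPM in B6 controls and 98.9, 89.1, 83.1, 110 and 133 CPM in D2 controls, so that Gm10260, at 120, 99.6, 102, 128 and 165 CPM, exceeded Rps18 in every D2 control. With reads of the near-copy added, Rps18 went from 151 ± 10.7 CPM (SD, n = 5) in B6 to 226 ± 46.0 CPM in D2 controls, and its log2 fold change turned from -0.57 to 0.56 (SE 0.15, limma adjusted p = 0.0120, exact p = 0.00794). In susceptible mice it turned from -0.55 to 0.57 (adjusted p = 0.0113).

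The coding sequences of Rps18 and Gm10260 are both 459 bases long and differ at 4 of them in the GRCm38 reference. Of the 487 windows of 75 bases in Gm10260, 257 (52.8%) do not occur in Rps18. The stretch from position 312 to 431, counted from the first coding base, holds 3 of the differences, which are in capitals, and is shown because a read over any of them can tell the genes apart.
Rps18: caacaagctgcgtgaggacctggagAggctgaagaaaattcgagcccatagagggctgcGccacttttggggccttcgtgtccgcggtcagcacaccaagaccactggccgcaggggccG
Gm10260: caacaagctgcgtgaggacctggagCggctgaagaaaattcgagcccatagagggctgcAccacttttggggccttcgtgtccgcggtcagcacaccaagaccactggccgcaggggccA
Both sequences are those of the reference strain, and no D2 sequence was used.

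Further near-copies were near 0 in B6 and not in D2 controls. Rpsa-ps10 averaged 0.099 CPM in B6 and 104 CPM in D2 controls, Gm6472, a copy of Rps7, 0.66 and 79.7 CPM, Gm8730, a copy of Rplp0, 0.32 and 349 CPM, and Gm14513, a copy of Rps3, 0.13 and 103 CPM. The D2 controls of these copies ran from 64.9 CPM for Gm6472 upward, and no B6 control exceeded 0.87 CPM. With the near-copies added, Rpsa went from 0.04 to 0.45 (limma adjusted p = 0.0178) and Rps7 from 0.18 to 0.55 (adjusted p = 0.00327), both then called higher in D2. Rplp0 went from -0.08 to 0.25 (adjusted p = 0.610) and Rps3 from -0.03 to 0.21 (adjusted p = 0.408), neither of them called. Rps15a and Rps28 stayed lower in D2, at -0.56 and -0.75, with their near-copies Rps15a-ps8 and Gm20568 added. In all, 36 members were then called, 30 higher and 6 lower (26.4% of all genes called). Adding near-copies left the BNST counts at 6 lower in resilient and 10 lower in susceptible pools.

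**Figure D5:**
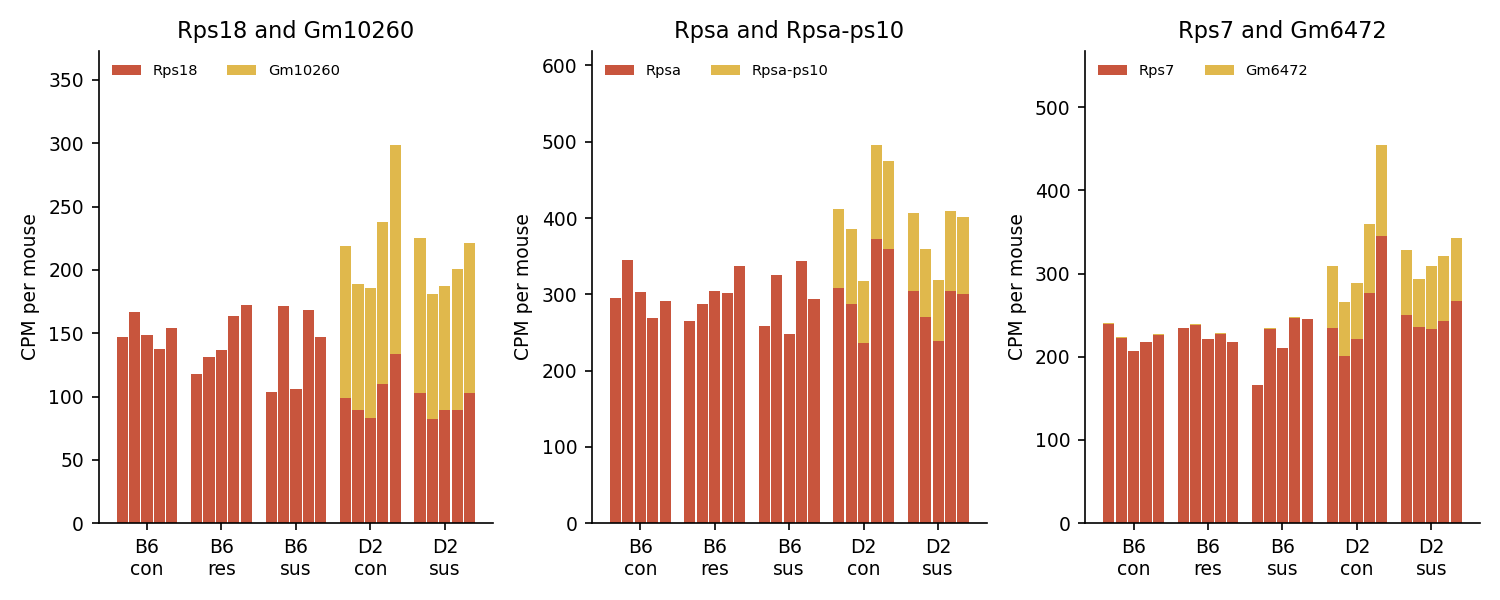
CPM in each blood mouse for Rps18, Rpsa and Rps7 (red) with a near-copy of each, Gm10260, Rpsa-ps10 and Gm6472, stacked on top (yellow), by group (con control, res resilient, sus susceptible). The near-copies are close to 0 in the 15 B6 mice and add between 57.1 and 165 CPM in each of the 10 D2 mice.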

How the data were processed

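AGO2-bound mRNA of BNST pools and mRNA of blood were analysed from the log2 CPM values that the authors deposited. Per the methods of the study, reads were aligned with STAR to GRCm38 and counted over Ensembl exons with HTSeq, genes without 1 CPM in enough samples were removed, and voom was applied. Libraries were made with strand-specific kits. How reads matching several genes were treated is not given in the sources used here. Each value was taken back to reads, which were whole within 3.4e-08 reads, so the deposited values hold no correction of single genes. The methods also describe a ComBat adjustment of the AGO2 mRNA data for experimental cohort. It is not in these values, and the labels used here give no cohort of a pool, so cohort was not fitted. They hold a scaling to an effective library size, with recovered reads at 0.93 to 1.10 times that size in BNST and 0.65 to 1.55 times in blood.

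Differences were fitted with limma 3.58.1 in R 4.3.3 on the deposited values, all groups of a tissue in 1 model with a mean-variance trend, and p-values were adjusted over all genes by the Benjamini-Hochberg method. A gene was called at an unadjusted p under 0.05 and a fold of at least 1.2. For single members the group means were also compared by exact permutation (two-sided), whose p cannot go below 0.00794 for 5 against 5 or 5 against 4. The fit was tested on simulated data. The members and gene lists were chosen with earlier results of these data known. The members named are the 8 with the smallest p in each direction of a comparison, the highest and lowest 3 per kb, paralog pairs, and Rplp0, Rplp1, Rplp2, Rpsa, Rps6, Rpl3, Rpl5, Rpl11, Rps19 and Rps27a. A member that this rule names is not reported here. Rpl10a, Rps16, Rps12, Rpl13a, in BNST Rps15, and other members outside this rule were named after their values had been seen. The D2 against B6 contrast in susceptible mice and the addition of near-copies were chosen after seeing the data. The labels do not say whether pools of a group were prepared separately, and p-values measure the spread between these samples.

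Pool numbers of the BNST groups did not pair the samples (2 of 13 same-number pairs correlated above 0.1). Alternatives were other scalings, filters, sample weights, blocks and leaving out each sample. Coordinates, exon lengths and coding sequences are from GENCODE M21 (GRCm38), promoters from RefSeq (GRCm38.p6). The depth limits precision, and intervals from counts would cover counting error only.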

Additional observations from a re-analysis of the deposited data

Results flagged for a closer look

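Single samples stood apart from the rest of their group in 6 of the 142 group values tested for this, and chance alone gives about 1 in 20. In BNST, resilient pool 1 had 5.60 log2 CPM of Rps3 against 5.95 to 6.09 in the other resilient pools. In blood, B6 susceptible mouse 1 stood low in the mean over large subunit members, at 6.84 log2 CPM against 7.24 to 7.35 in the other B6 susceptible mice. The same mouse had 7.79 of Rpl34 against 8.31 to 8.43, 6.57 of Rpl35a against 7.10 to 7.22 and 6.60 of Rps28 against 7.07 to 7.23. Its Rpl34 was still above every D2 mouse. In B6 resilient mouse 5, Rps3a1 was high at 8.55 log2 CPM against 8.40 to 8.44 in the other resilient mice, and this mouse had the largest blood library, at 15878495 reads.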

How the results depend on the processing

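In BNST every alternative kept the called members of resilient and susceptible pools below controls, but their number moved. For resilient pools against controls 6 became 12 with sample weights (21.8% of all genes called). It was 4 to 15 without 1 pool (15 without resilient pool 3, with 26.0%, and 10 without resilient pool 5, with 14.9%). For susceptible pools against controls 10 became 6 with quantile normalization (19.3% of all genes called) and 5 after centring on the median of all genes (19.1%). It became 3 with voom on recovered reads (20.7%) and 5 with the replicate block (17.7%). It was 4 to 16 without 1 pool (4 without susceptible pool 3, with 17.6%, and 16 without susceptible pool 1, with 21.3%). Between susceptible and resilient pools 1 (2.14% of all genes called) became 0 with quantile normalization (1.97%), centring (2.19%) or the compared groups alone (1.61%). It became 3 with voom (3.25%) or sample weights (2.91%) and 2 with the replicate block (1.75%). It was 0 to 4 without 1 pool (0 without resilient pool 2, with 2.8%, and 4 without resilient pool 3, with 5.71%). Of the pools, 3 of 14 correlated best with a pool of their own number, so the pools share only a number.

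In blood the stress counts of 0 became 1 with quantile normalization in B6 resilient and in B6 susceptible mice against controls (2.04% and 4.13% of all genes called). They became 2 with sample weights in B6 resilient mice (3.88%). Without 1 mouse they were 0 to 5 in B6 resilient mice (5 without B6 resilient mouse 5, with 8.61%). They were then 0 to 2 in B6 susceptible mice against controls and 0 to 2 against resilient mice. In D2 susceptible mice and for the difference between strains they were 0 throughout. The strain count of 33 was 26 to 38 under the other alternatives (26 with quantile normalization, with 27.7% of all genes called). It was 34 with the groups of the column names (29.8% of all genes called) and 38 without the 2 mice whose names disagree (28.3%). Without 1 mouse it was 22 to 39 (22 without D2 control mouse 5). In susceptible mice 27 became 25 to 40 (40 with voom on recovered reads, with 23.8% of all genes called), and 22 to 32 without 1 mouse. The shares of all genes for the strain counts without 1 mouse are not given here, so these ranges cannot be called particular to the members. With voom on recovered reads the median of all genes was -0.15 in B6 resilient and -0.13 in B6 susceptible mice against controls, from 0.02 in each.

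Of the single members, 297 of 360 values kept their call in BNST and 63 lost it, and 1030 of 1044 kept it in blood, 12 lost it and 2 reversed. Both reversals were Rps18 with the reads of near-copies added, at 0.56 in controls and 0.57 in susceptible mice, because the near-copy had reads in D2 and nearly none in B6. The cause of the other changes was not tested.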
